A study of Mus musculus with 2 samples.

Results

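The 10 integrin chains described here are the 6 α chains *Itgal*, *Itgae*, *Itga4*, *Itga6*, *Itgav* and *Itga1* and the 4 β chains *Itgb7*, *Itgb2*, *Itgb1* and *Itgb3*, which are known from T cells. They were picked by gene symbol, not by level, and all 10 were found among the 48321 genes counted in both libraries. The question was how much RNA of each chain these thymocytes held, and how each α chain compared with the β chain it binds. RNA-seq was run on sorted CD4- mature thymocytes of 1 genotype, MHC-II0:CD8ab Tg on a C57Bl/6 background, with 2 replicates.

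Both libraries share every genetic change. The mice lacked MHC class II through loss of the I-Aβ chain, carried a disrupted endogenous *Cd8* locus, and made CD8α and CD8β from cDNAs placed in the Rosa26 locus and switched on by Cd4-Cre. CD8 of these cells therefore comes from a ubiquitous locus in place of its own. Mature thymocytes are those with low CD24 and high TCRβ in the study's flow cytometry, and its methods do not say more of the gate used for the RNA. The labels name the cells both as CD4-CD8- and as CD8+, and give no age or sex. Nothing in them says that the replicates came from separate mice. Wild-type libraries were not analysed here, so no difference between genotypes is given, and every value below is a level in the transgenic cells or a difference between the 2 libraries.

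Integrins are adhesion receptors made of an α and a β chain that bind each other without covalent bonds, and a chain reaches the cell surface only as part of such a pair. Their heads bind ligands on other cells or in the matrix, and their short cytoplasmic tails are held by talin and kindlins, which switch the receptor to a state of high affinity after signals from the TCR or from chemokine receptors. LFA-1 (αLβ2) binds ICAMs and serves thymocytes and T cells in contacts with antigen-presenting cells, VLA-4 (α4β1) binds VCAM-1 and fibronectin, α4β7 binds MAdCAM-1 of gut vessels, and αEβ7, also called CD103, binds E-cadherin of epithelial cells and marks mature CD8 thymocytes. VLA-6 (α6β1) binds laminins, VLA-1 (α1β1) binds collagens, and the αV receptors bind vitronectin, fibronectin and the latent form of TGF-β.

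The sequences below show the part of each chain through which the pair is controlled from inside the cell. For an α chain the capitals mark the codons of the motif GFFKR, which lies next to the membrane and holds the tails of α and β together. For a β chain they mark the codons of the first motif of the form NPxY or NPxF in the tail, where talin binds. Each is the coding strand, 5′ to 3′, over 30 bases of GRCm38, read from the GENCODE M21 transcript rated as the principal isoform.

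Itgal: GGCTTCTTCAAACGGaacctgaaggagaag
Itgae: GGCTTTTTCAAAAGAaaatatcaacaactg
Itga4: GGATTCTTTAAAAGAcagtacaaatctatc
Itga6: GGCTTCTTCAAGAGAaataagaaagatcat
Itgav: GGCTTTTTCAAACGTgtccgaccacctcaa
Itga1: GGATTCTTCAAAAGGccactaaagaagaaa
Itgb7: AATCCTCTCTACaaaagtgcgatcacaacc
Itgb2: AACCCCCTCTTCaagagtgctacgacaacg
Itgb1: AATCCTATTTACaagagtgccgtgacaact
Itgb3: AACCCGCTGTATaaagaggccacctccacc

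All 6 α chains coded for GFFKR with different codons, and in all 6 the exon began 3 bases upstream of it. Beyond the motif the α tails of these transcripts were unlike in length, and other isoforms were not read. The tail of *Itga1* ended 8 residues after GFFKR, those of *Itgae*, *Itga4*, *Itgav* and *Itga6* ended 23, 25, 25 and 29 residues after it, and that of *Itgal* ran on for 46 residues. Among the β chains the motif read NPLF in *Itgb2*, NPIY in *Itgb1*, and NPLY in *Itgb7* and *Itgb3*. The exon began 3 bases upstream of the motif in *Itgb2* and 6 bases upstream in the other 3. After it came 29 residues in *Itgb7* and 15 in each of the others. The windows are at chr7:127333455-127333484 for *Itgal*, chr11:73147054-73147083 for *Itgae*, chr2:79326523-79326552 for *Itga4*, chr2:71853537-71853566 for *Itga6*, chr2:83803243-83803272 for *Itgav* and chr10:77565181-77565210 for *Itgb2*, all on the plus strand. That of *Itgb1* is at chr8:128732029-128732058 and that of *Itgb3* at chr11:104667086-104667115, also on the plus strand. Those of *Itga1* (chr13:114960102-114960131) and *Itgb7* (chr15:102216232-102216261) are on the minus strand.

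The libraries held 16732644 and 16245849 reads on genes, in replicates 1 and 2, and levels are given as CPM, the usual rescaling of a count by such a total. A count of 3, the smallest level taken as shown, is 0.179 CPM in replicate 1 and 0.185 in replicate 2. The reads carry no molecular identifiers, so counting intervals and this floor cover counting error only. All 13 markers of mature CD8 lineage thymocytes were at or above 1 CPM in both libraries, against 12667 of all 48321 genes (26.2%). Reads of the *Cd8a* and *Cd8b1* transgenes were not told apart from reads of what remains of the endogenous locus. These 2 genes cannot mark the lineage here, and the other 11 markers were all at or above 1 CPM. Per kb of exon *Cd8b1*, *Trac*, *Trbc2* and *Cd3d* led this list with 526, 446, 377 and 226 CPM per kb, while *Cd8a* had 45.3. Markers of double-positive thymocytes summed to 19.4 and 18.9 CPM over 7 genes, most of it from *Dntt*. All 4 γδ T cell markers were present at a summed 32.8 and 30.5 CPM, most of it from *Tcrg-C2* (20.4 and 17.5). *Trdc* had 5.32 and 7.14 CPM, and which cells this RNA came from was not tested. All 4 NK or innate T cell markers were at or above 1 CPM in both libraries, and they summed to 70.6 and 86.3 CPM. Of these *Tbx21* had 27.6 and 30.3 CPM, *Klrb1c* 22.1 and 27.5, and *Zbtb16* 18.2 and 21.6. At or above 1 CPM in both libraries were 2 of 3 CD4 lineage markers, 1 of 5 of B cells, 3 of 8 myeloid, 2 of 5 of dendritic cells, 1 of 6 of thymic epithelium, and 0 of 6 erythroid, 5 endothelial and 5 fibroblast markers. *S100a8* and *S100a9* of myeloid cells, *Kdr* of endothelium and *Dcn* of fibroblasts had 0 counts in both, while *Csf1r* and *Cd68* of myeloid cells had 163 and 191 and 51 and 47 counts, and *Cd79b* of B cells had 196 and 227. *Ddx3y*, on the Y chromosome, was counted 2450 times in replicate 1 and 0 times in replicate 2, and *Xist*, made from an inactive X chromosome, had 34 and 25266, so the libraries hold RNA of different mice. No member lies on a sex chromosome.

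All 10 chains were at or above 1 CPM in both libraries, and also at or above 5 CPM. In CPM, *Itgal* was counted most, and the lowest, *Itga1*, still had 268 and 221 counts. Per kb of exon, as in CPM, the chains of LFA-1 and of αEβ7 lay above those of the laminin, collagen and vitronectin receptors. In bulk RNA a chain found in fewer cells and one with less RNA per cell cannot be told apart.

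**Figure D1:**
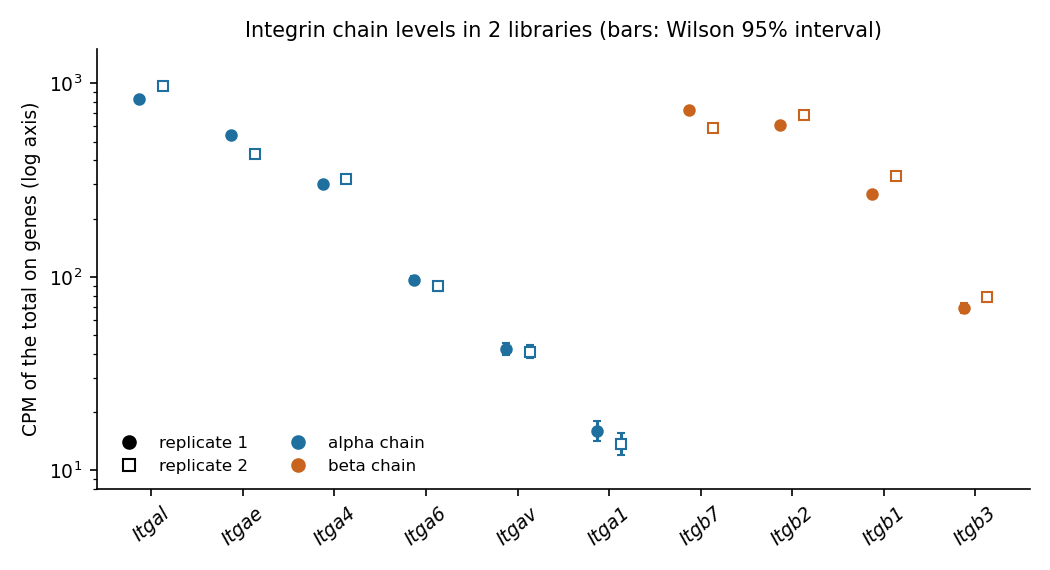
Level of each integrin chain in replicate 1 (filled circles) and replicate 2 (open squares), in CPM of the total on genes on a log axis, α chains in blue and β chains in orange, with Wilson 95% intervals that cover counting error only and are mostly smaller than the symbols. *Itgal* and *Itgb2* are higher in replicate 2, while *Itgae* and *Itgb7* are higher in replicate 1. CPM is not corrected for gene length, so heights compare libraries and not genes.

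Among the α chains, *Itgal* (chr7:127296260-127335138, plus strand), which encodes αL of LFA-1, had 834 CPM in replicate 1 and 966 CPM in replicate 2, or 900.3 ± 93.1 CPM (mean ± SD, n = 2). *Itgae* (chr11:73090583-73147446, plus strand), which encodes αE of CD103, had 539 and 432 CPM, or 485 ± 75.8. *Itga4* (chr2:79255426-79333123, plus strand), which encodes α4 of VLA-4 and α4β7, had 303 and 320 CPM, or 312 ± 11.6. The replicates of *Itga4* were thus much closer to each other than those of *Itgal* and *Itgae*, which also moved in opposite directions. *Itga6* (chr2:71745616-71858416, plus strand), the laminin-binding chain of VLA-6, had 96.4 and 89.2 CPM. *Itgav* (chr2:83724397-83806916, plus strand), the αV chain, had 42.3 and 40.9 CPM, and *Itga1* (chr13:114953096-115101964, minus strand), the collagen-binding chain of VLA-1, had 16.0 and 13.6 CPM. The Wilson 95% intervals of the libraries overlapped for *Itga4*, *Itga6*, *Itgav* and *Itga1*, for example from 39.3 to 45.5 and 37.9 to 44.2 CPM for *Itgav* and from 14.2 to 18.1 and 11.9 to 15.5 CPM for *Itga1*.

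Among the β chains, *Itgb7* (chr15:102215995-102231944, minus strand), the partner of α4 and αE, had 727 and 591 CPM, or 659 ± 96.7 (mean ± SD, n = 2). *Itgb2* (chr10:77530252-77565708, plus strand), the partner of αL, had 607 and 687 CPM, or 647 ± 56.3. *Itgb1* (chr8:128685654-128733200, plus strand), the partner of all VLA α chains, had 268 and 330 CPM, or 299 ± 44.1. In CPM and per kb of exon, the order of *Itgb7* and *Itgb2* was opposite in the 2 libraries, and *Itgb1* was below both in each. *Itgb3* (chr11:104608000-104670476, plus strand), best known from platelets and a partner of αV, had 69.1 and 78.2 CPM, or 73.7 ± 6.47.

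To compare genes with each other, CPM was divided by the length of the union of a gene's annotated exons. On this scale the order was *Itgb7* (238 ± 34.9 CPM per kb), *Itgb2* (212 ± 18.4), *Itgal* (137 ± 14.2), *Itgae* (106 ± 16.6) and *Itgb1* (73.3 ± 10.8). Then came *Itga4* (22.3 ± 0.831 CPM per kb), *Itgb3* (12.5 ± 1.10), *Itga6* (10.3 ± 0.565), *Itgav* (3.87 ± 0.0868) and *Itga1* (0.796 ± 0.0917). Of the 9 neighbouring pairs in this order, the replicate ranges of *Itgb7* and *Itgb2* overlapped, and the other 8 pairs did not overlap. *Itgb7*, *Itgb2*, *Itgal*, *Itgae* and *Itgb1* ranked 101, 112, 207, 270 and 418 among 21192 protein-coding genes by CPM per kb. *Itga4* ranked 1885, *Itgb3* 3389, *Itga6* 4038, *Itgav* 6945 and *Itga1* 9564. The 4 chains of LFA-1 and αEβ7 made up 86.0% of the CPM per kb of the whole integrin family of 27 genes in replicate 1 and 83.8% in replicate 2. This share was computed with the union of exons only. Of the 10 members, that length lowers *Itga4*, *Itga6*, *Itgav* and *Itga1* most beside the coding length, so the share leans toward the 4 named chains.

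**Figure D2:**
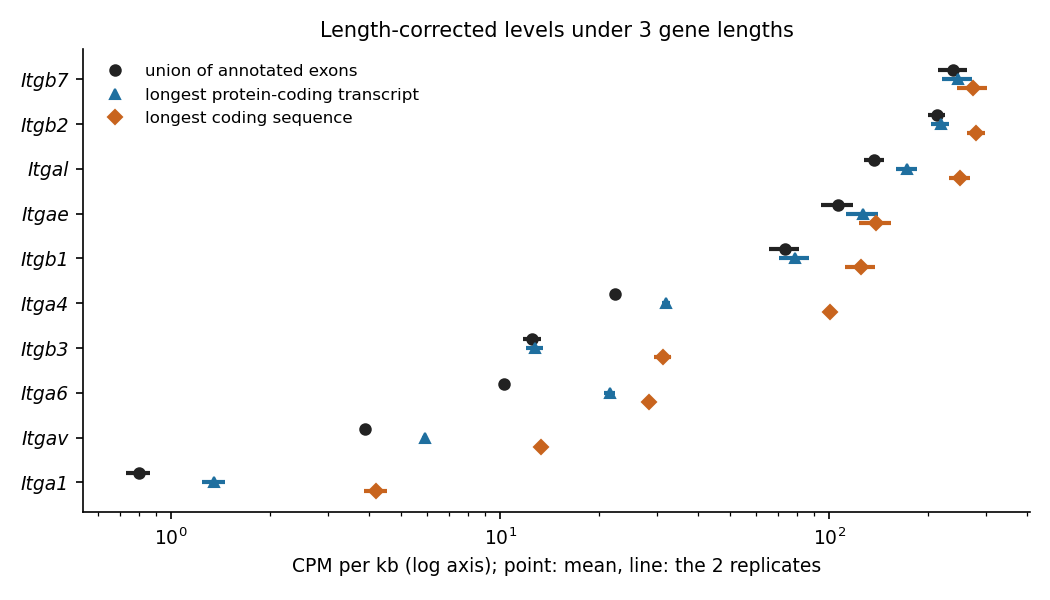
Mean level of each chain in CPM per kb on a log axis, divided by the length of the union of annotated exons (circles), of the longest protein-coding transcript (triangles) or of the longest coding sequence (diamonds); lines join the 2 replicates. *Itga4*, *Itga6*, *Itgav* and *Itga1* move right under the coding length, and *Itgb7* and *Itgae* move least.

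The choice of length mattered most for the chains whose annotated exons are long beside their coding sequence. The union of exons was 1.15 times the coding length in *Itgb7*, 4.51 times in *Itga4* and 5.26 times in *Itga1*. Per kb of coding sequence *Itga4* reached 101 ± 3.75 CPM per kb and *Itgb2* (280 ± 24.4), *Itgb7* (273 ± 39.98) and *Itgal* (249.9 ± 25.8) came first. On that scale the ranges of 4 neighbouring pairs overlapped, namely *Itgb2* with *Itgb7*, *Itgb7* with *Itgal*, *Itgae* with *Itgb1*, and *Itgb3* with *Itga6*. The lowest places, *Itgav* above *Itga1*, were the same with all 3 lengths.

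Overlapping genes and shared sequence touched 6 members. Exons of *Itga4* overlapped those of *Cerkl* on the opposite strand over 1124 bases, or 8.04% of their union, and *Cerkl* had 651 and 713 counts. Exons of *Itgav* overlapped *Gm13684* on the opposite strand over 634 bases, 5.90%, and *Gm13684* had 10 counts in each library. Since the strand setting of the counting is not given in the sources used here, *Itga4* and *Itgav* are uncertain to this extent. *Itga1* overlapped *Gm49395* on its own strand over 3.68% of its exons, and *Gm49395* is not among the genes counted. The share of 50-base windows also found in other genes was 7.51% for *Itga4*, 5.40% for *Itgav*, 5.31% for *Itga6*, 3.27% for *Itga1*, 1.05% for *Itgb2* and 0.086% for *Itgb3*. *Itgal*, *Itgae*, *Itgb1* and *Itgb7* shared none.

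The partners of each heterodimer were compared within a library, as the log2 ratio of α to β counts per kb of exon. The β chain was the higher partner in all 8 pairs, in both libraries, with counting intervals on the same side of 0. This held in all 8 pairs with each of the 3 lengths, but the size of the gap depended on the length used. No p is given, since 2 libraries allow no permutation test below 0.05.

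LFA-1 had the closest partners. The log2 ratio of *Itgal* to *Itgb2* was -0.65 in replicate 1 (95% exact binomial interval -0.68 to -0.61) and -0.61 in replicate 2 (-0.65 to -0.58), or -0.63 ± 0.024 (mean ± SD, n = 2). *Itgb2* was thus 1.55 ± 0.0255 times *Itgal* per kb of exon and 1.12 ± 0.0185 times *Itgal* per kb of coding sequence. The ratio moved by 0.03 on the log2 scale between the libraries, while *Itgal* itself moved by 0.21 and *Itgb2* by 0.18, both toward replicate 2.

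In αEβ7 the ratio was as steady. The log2 ratio of *Itgae* to *Itgb7* was -1.16 in replicate 1 and -1.18 in replicate 2, or -1.17 ± 0.014, and *Itgb7* was 2.25 ± 0.0218 times *Itgae* per kb of exon. Per kb of coding sequence it was 1.97 ± 0.0191 times *Itgae*. Both chains were lower in replicate 2, with log2 differences of -0.32 for *Itgae* and -0.30 for *Itgb7*. The counting intervals of the 2 libraries overlapped for this ratio, as they did for LFA-1.

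*Itga4* is shared by 2 receptors, and its β partners moved in opposite directions. Against *Itgb1* its log2 ratio was -1.60 and -1.82 in replicates 1 and 2, with *Itgb1* 3.28 ± 0.363 times *Itga4* per kb of exon. Against *Itgb7* it was -3.60 and -3.22, with *Itgb7* 10.7 ± 1.96 times *Itga4*. The libraries' counting intervals did not overlap for either ratio. Per kb of coding sequence *Itgb1* was 1.24 ± 0.137 and *Itgb7* 2.72 ± 0.498 times *Itga4*. *Itga4* and *Itgae* together gave a log2 ratio to *Itgb7* of -0.89 ± 0.035.

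The other partners of *Itgb1* were far below it. *Itgb1* was 7.17 ± 1.44 times *Itga6*, 19.0 ± 3.22 times *Itgav* and 93.4 ± 24.3 times *Itga1*, per kb of exon. *Itgb1* was higher in replicate 2 by 0.30 on the log2 scale and these α chains were not, and the counting intervals of the libraries did not overlap for any of the 3 ratios. When *Itga4*, *Itga6*, *Itgav* and *Itga1* were added up, the log2 ratio to *Itgb1* was -0.97 ± 0.21. This sum is the single comparison that changed side with the length, to 0.24 per kb of coding sequence.

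For αVβ3 the log2 ratio of *Itgav* to *Itgb3* was -1.57 in replicate 1 and -1.80 in replicate 2, or -1.69 ± 0.16, with *Itgb3* 3.23 ± 0.356 times *Itgav* per kb of exon. On the same scale *Itgb3* (12.5 CPM per kb) lay below *Itgb1* (73.3), the other partner of *Itgav*. The other known partner of β3 is αIIb of platelets, and its gene *Itga2b* had 26 and 34 counts, 1.55 and 2.09 CPM. Of the 7 megakaryocyte and platelet markers, *Pf4* and *Ppbp* had 0 counts in both libraries, and 2 (*Gp1ba* and *Itga2b*) were at or above 1 CPM. The list summed to 5.50 and 4.86 CPM. Which cells the *Itgb3* RNA came from was not tested.

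**Figure D3:**
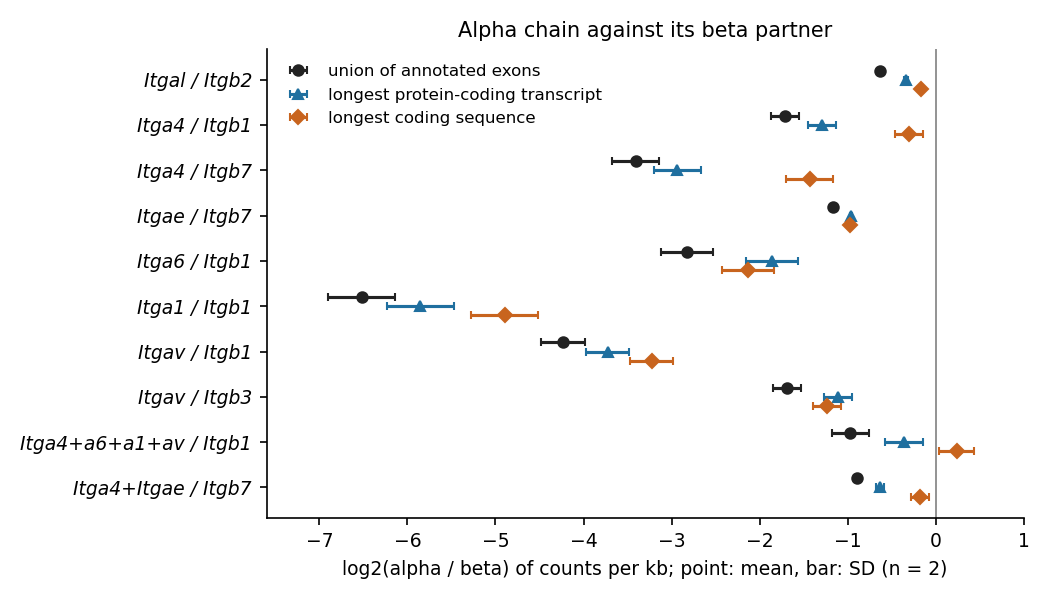
Log2 ratio of the α chain to its β partner per kb, as mean and SD of 2 replicates, for 8 heterodimers and 2 sums of α chains that share a β chain, with the lengths named in the key; the grey line marks equal levels. All 8 heterodimers lie left of the line with each length, and the sum of the 4 partners of *Itgb1* crosses it with the coding length.

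Within each kind of chain, the make-up was led by the same pairs. Of the summed CPM per kb of the 6 α chains, *Itgal* made up 48.9 ± 5.46% and *Itgae* 37.8 ± 5.60%, followed by *Itga4* with 7.96 ± 0.362%. Of the 4 β chains, *Itgb7* made up 44.4 ± 6.14%, *Itgb2* 39.6 ± 3.78%, *Itgb1* 13.7 ± 2.13% and *Itgb3* 2.33 ± 0.225%. *Itgal* led the α chains in both libraries. With coding lengths the share of *Itga4* was 18.8 ± 0.504% and that of *Itgae* 25.9 ± 4.32%.

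Between the libraries the members fell into chains that were higher in replicate 2 and chains that were higher in replicate 1. The exact binomial test (two-sided, adjusted by Benjamini-Hochberg over all genes tested) compares these 2 libraries and not conditions. In it 7 of 10 members passed an adjusted p of 0.05, against 16.3% of the 15949 genes tested. The test gains power with depth, and among the 7803 genes with at least as many counts as the lowest member (489 summed) 26.7% passed. That set is not matched in depth to the higher members. *Itgal* (log2 difference of replicate 2 to replicate 1 of 0.21, adjusted p = 4.81e-34 in the exact binomial test), *Itgb2* (0.18, adjusted p = 2.88e-17), *Itgb1* (0.30, adjusted p = 5.79e-23), *Itgb3* (0.18, adjusted p = 0.0189) and *Itga4* (0.08, adjusted p = 0.0480) were higher in replicate 2. *Itgb7* (-0.30, adjusted p = 2.81e-50) and *Itgae* (-0.32, adjusted p = 5.48e-42 in the exact binomial test) were higher in replicate 1. *Itga6* (-0.11, adjusted p = 0.137 in the exact binomial test), *Itgav* (-0.05, adjusted p = 0.792) and *Itga1* (-0.24, adjusted p = 0.244) did not pass.

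The median log2 difference over all genes tested was 0.08, so that scaling to the total placed more genes higher in replicate 2, 2146 of the 2596 that passed. With TMM library sizes 1688 genes passed, 812 of them higher in replicate 2, and the members that passed were 3 in each direction.

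These differences were small. No member passed both the adjusted p and a 2-fold difference, as 1.52% of all genes did, and the largest, of *Itgae*, was 0.32 on the log2 scale. The median size was 0.20 over the members and 0.17 over all genes tested. It was 0.10 over the genes with at least as many counts as the lowest member. When a biological coefficient of variation of 0.1 was assumed in the exact test of edgeR, 0 of 10 members passed the adjusted p, against 0.464% of all genes, and 0 had an unadjusted p under 0.05. With library sizes from edgeR's TMM, from DESeq2, or from totals that leave out rRNA and mitochondrial genes, *Itga4* and *Itgb3* no longer passed the exact binomial test and *Itga6* did (adjusted p = 0.00462, 0.0125 and 0.0160). *Itga4* was also lost with a minimum of 1 count (adjusted p = 0.0716 in the exact binomial test), and its sign turned with TMM.

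**Figure D4:**
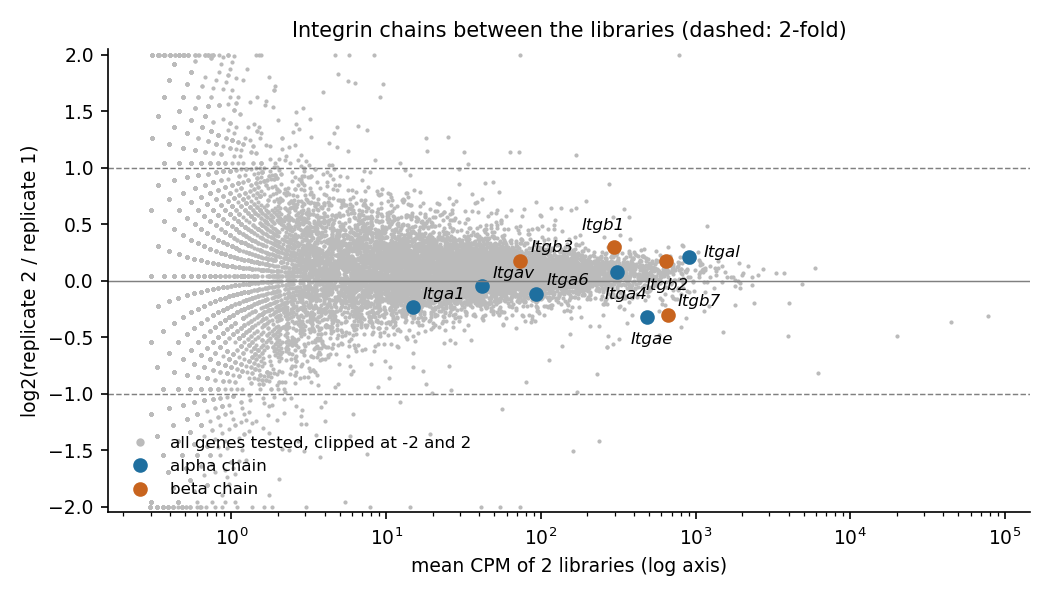
Log2 ratio of replicate 2 to replicate 1 against mean CPM (log axis) for all 15949 genes tested (grey, clipped at the edges) and the 10 members (α blue, β orange); dashed lines mark 2-fold. All members lie within the dashed lines, with *Itgae* and *Itgb7* at the lower edge of genes of their level and *Itgb1* and *Itgal* toward the upper edge.

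Marker genes moved between the libraries as well. Over all genes tested 16.3% passed the exact binomial test, and of those with at least as many counts as the lowest member 26.7% passed. Of the 5 markers of innate memory-like CD8 T cells, all 5 passed the exact binomial test, 4 of them higher in replicate 2 and *Ly6c2* higher in replicate 1, and the list summed to 1142 and 1362 CPM, led per kb of exon by *Il2rb* (130 CPM per kb), *Ly6c2* (76.1), *Eomes* (66.2) and *Cxcr3* (60.7). *Eomes*, a T-box factor of memory and innate CD8 T cells, had 196 and 355 CPM. Of the 13 mature CD8 markers, 7 passed, 5 of them higher in replicate 1 (9 of 9 with TMM), and the list summed to 4743 and 4489 CPM. Of the 4 NK or innate T cell markers 2 passed, both higher in replicate 2 (1 with TMM). *Ncr1*, an activating NK receptor with 45 and 112 counts, was also more than 2-fold apart, against 1.52% of all genes tested. The part of these differences in those of the integrin chains was not tested.

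The other 17 integrin chains were low. The 10 members took 99.3% of the counts of the 27 genes in both libraries. Of the 17, 7 were at or above 1 CPM in both libraries, and *Itga5*, the fibronectin receptor chain, was the highest with 8.01 and 10.3 CPM. Per kb of exon *Itga5* (1.85 CPM per kb) lay above the lowest member, *Itga1* (0.796), and the next, *Itga3* (0.589), a laminin-binding chain with 3.65 and 3.08 CPM, below it. *Itga2* and *Itga10*, which bind collagen, had 2.87 and 2.59 CPM and 1.73 and 2.52 CPM. *Itga2b* was given above, *Itgb8*, a partner of αV, had 1.37 and 1.85 CPM, and *Itgam*, the αM chain of myeloid cells, had 2.03 and 1.11 CPM. Exons of *Itga10* and *Itgam* overlapped other genes on the same strand over 33.5% and 68.7%. *Itgb2l* had 0 counts, and 3 others were at or under 3 counts in both libraries. None of the 10 chains with enough counts passed the exact binomial test between the libraries, against 16.3% of all genes tested. The test gains power with depth, and even *Itga5* had 134 and 167 counts, fewer than any member. This result therefore does not show that these chains were steadier than other genes.

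**Figure D5:**
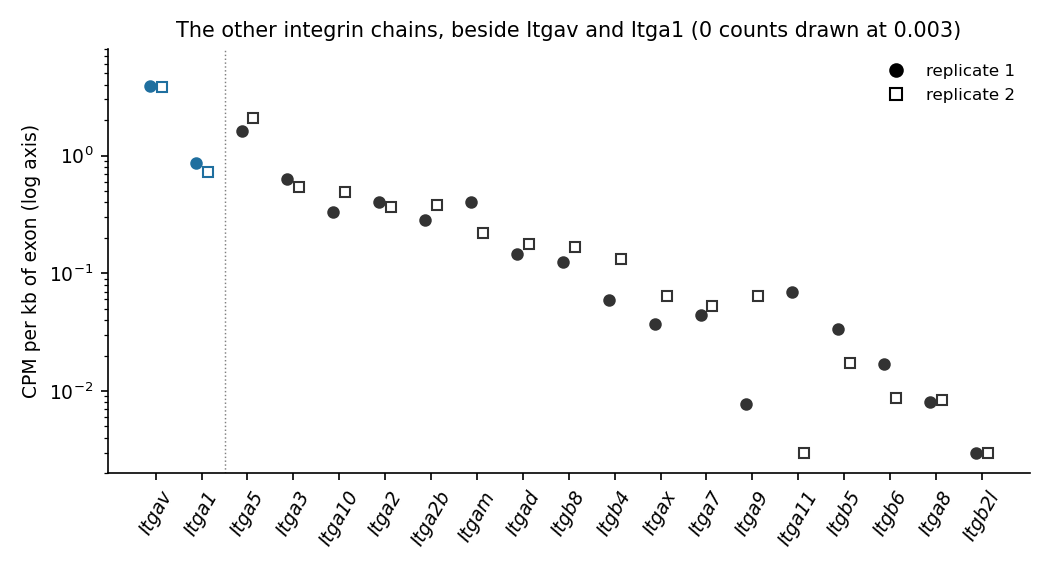
CPM per kb of exon (log axis) of the 17 other integrin chains in replicate 1 (filled circles) and replicate 2 (open squares), to the right of the dotted line, beside the 2 lowest members, *Itgav* and *Itga1* (blue). *Itga5* lies between *Itgav* and *Itga1*, and the other 16 chains lie below *Itga1*.

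RNA of most listed genes that act on integrins inside the cell was found, both of genes that activate them and of genes that restrain them. Of 33 genes of control and linkage to the cytoskeleton, 29 were at or above 1 CPM in both libraries, against 26.2% of all genes. Per kb of exon the highest were *Flna*, filamin A, which holds integrin tails inactive and links actin (157 CPM per kb), *Rap1b*, the small GTPase of inside-out signalling (136), *Tln1*, talin (111), and *Sipa1*, which inactivates Rap1 (92.1). Talin-1 thus far exceeded talin-2, since *Tln2* had 13 and 18 counts, and of the kindlins *Fermt3*, the form of blood cells, had 263 and 284 CPM, while *Fermt2* had 0 counts and *Fermt1* 2 and 5. The exact binomial test between the libraries was passed by 16.3% of all genes tested, and by 26.7% of those with at least as many counts as the lowest member. Of 30 genes tested in this list, 17 passed it, 15 of them higher in replicate 2, and none was also 2-fold apart, against 1.52% of all genes. This split rested on the scaling, since with TMM 7 passed, 2 of them higher in replicate 2, and with DESeq2 size factors 8 passed, 3 of them higher in replicate 2. The median log2 difference of the list was 0.11, against 0.08 over all genes tested. *Rassf5*, the Rap1 effector RAPL, had 285 and 352 CPM. *Actn1*, α-actinin-1, which binds β tails, was higher in replicate 1, with 430 and 349 CPM.

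RNA of some ligands of these receptors was found in the same libraries, and which cells it came from was not tested. Of 22 ligand genes, 4 were at or above 1 CPM in both libraries. *Icam1* had 98.7 and 86.8 CPM and *Icam2* 36.2 and 35.7 CPM, both ligands of LFA-1, and *Cdh1*, E-cadherin, the ligand of αEβ7, had 74.0 and 95.6 CPM. *Epcam*, an epithelial gene, had 2.99 and 3.26 CPM, and the other 5 thymic epithelial markers (*Krt5*, *Krt8*, *Krt14*, *Foxn1* and *Psmb11*) were each under 1 CPM. *Lamc1*, a laminin chain, had 3.23 and 5.23 CPM. *Madcam1* and *Vtn*, ligands of α4β7 and of αV, had 0 counts, and *Vcam1* had 9 and 6. Of the 10 ligand genes tested between the libraries, 4 passed the exact binomial test, 1 higher in replicate 1 and 3 in replicate 2. Over all genes tested 16.3% passed, and of those with at least as many counts as the lowest member 26.7%. The 4 were *Icam1*, *Cdh1*, *Lamc1* and *Col1a1*. *Col1a1*, with 3 and 16 counts only, was the single one also 2-fold apart, as were 1.52% of all genes tested.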

How the data were processed

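RNA of sorted CD4- mature thymocytes was sequenced by the authors as poly(A) libraries (NEBNext, single-end 50-base reads, HiSeq), mapped with TopHat2 2.1.1 onto mm10 and counted with HTSeq 0.6.1. The deposited values are raw counts per gene. The gene annotation and strand setting are not given in the sources used here. Rows for reads on no gene or several genes were left out (55.9% of uniquely aligned reads in both libraries fell on no feature).

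Levels are CPM of the total on genes, with Wilson intervals and no pseudocount. Positions, lengths and transcripts came from GENCODE M21 on GRCm38, where 46394 of 48321 symbols were found. Genes with at least 10 counts summed were compared between libraries by the exact binomial test of scipy 1.17.1 (two-sided), adjusted by Benjamini-Hochberg in statsmodels 0.14.6, which was also tested on simulated data. Called genes were 2-fold or more apart with an adjusted p below 0.05. Its p-values cover counting error between these 2 libraries and not the spread among replicates of a condition. Alternatives used edgeR 4.0.16 and DESeq2 1.42.0 in R 4.3.3, other lengths, filters and totals, and each replicate left out.

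Named are all members, the 4 genes of each list highest per kb, other integrin chains at or above 1 CPM, and list genes called between libraries. Other genes were named after their values were seen, and marker lists are given mostly by counts. Members and lists were chosen with earlier results of these data known.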

Additional observations from a re-analysis of the deposited data

How the results depend on the processing

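The gene length, the count minimum, the error model and the total used for CPM each moved a result. With the longest transcript as length the log2 α to β ratio was -0.34 for *Itgal*/*Itgb2*, -1.29 for *Itga4*/*Itgb1*, -2.94 for *Itga4*/*Itgb7*, -0.96 for *Itgae*/*Itgb7*, -1.86 for *Itga6*/*Itgb1*, -5.86 for *Itga1*/*Itgb1*, -3.73 for *Itgav*/*Itgb1* and -1.11 for *Itgav*/*Itgb3*, with -0.36 for the summed partners of *Itgb1* and -0.63 for those of *Itgb7*. With the coding length the values in the same order were -0.17, -0.30, -1.43, -0.98, -2.13, -4.90, -3.23 and -1.23, then 0.24 for the partners of *Itgb1*, which reversed, and -0.18 for those of *Itgb7*. The number of genes differing between the libraries was 242, split into 92 toward replicate 1 and 150 toward replicate 2. It was 55 with at least 100 counts summed and 60 with edgeR's exact test. TMM library sizes gave 100 and 98 in the 2 directions, DESeq2 size factors 98 and 104, and totals that leave out rRNA and mitochondrial genes 97 and 104. Those totals also raised every member's CPM by a factor of 1.165 to 1.17. Every ratio per kb of exon had the same side in both libraries, and all 10 members were at or above 1 CPM in both. Leaving out either replicate could therefore not change these results. No paired analysis was possible because both replicates belong to a single group.

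Limits are the single condition, 2 libraries that differ in sex-linked genes, and gene lengths from an annotation not known to be the one used for counting. RNA levels do not give the surface level of a receptor.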
